A study of Homo sapiens with 4 samples.

Results

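The 14-3-3 genes of C4-2 cells were examined after RRM2 knockdown. The family has 7 genes, SFN (14-3-3 sigma), YWHAB (beta), YWHAE (epsilon), YWHAG (gamma), YWHAH (eta), YWHAQ (theta) and YWHAZ (zeta), and the members are the rows of the gene table that carry these symbols, 7 of 27275 rows. All 7 passed the filter on low counts that left 15840 genes for testing. The family was chosen by measured values, because SFN stood among the largest increases in this same contrast. Values of the 7 genes are therefore given as a description, with fold changes and standard errors and with no p-value. The standard errors (SE) were derived from the edgeR F statistic and were smaller than those of DESeq2 for every member.

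The 14-3-3 proteins are small acidic adaptors that form homodimers and heterodimers and bind client proteins at phosphorylated serine or threonine, which can shift where a client sits in the cell, shield it or change its activity. Most members are abundant in nearly all tissues. SFN differs in that it is found mainly in stratified and glandular epithelia, prefers to pair with itself, is a direct target of p53, and holds the cyclin B and CDK1 kinase in the cytoplasm after DNA damage so that cells wait in G2.

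C4-2 cells descend from LNCaP, a line of human prostate cancer. RNA was sequenced from cells transfected with a pool of siRNAs against RRM2, the small subunit of the ribonucleotide reductase that makes deoxyribonucleotides, and from cells transfected with scrambled siRNA, with 2 libraries in each group. There was 1 pool and 1 line, and the sources used here do not give the time of harvest. Separate cultures are not named for the libraries within a group, so the p-values cover only differences among these libraries, possibly technical ones.

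Library totals ran from 27844121 to 29941671 estimated counts. Ribosomal and other structural RNA genes took 3.94% to 4.52% of the counts in 3 libraries and 8.28% in RRM2 siRNA replicate 2. RRM2 had 1333 and 1239 normalized counts in scrambled siRNA cells and 118 and 125 in RRM2 siRNA cells (log2 fold change -3.41, SE 0.08, edgeR quasi-likelihood adjusted p = 2.60e-13), as the labels imply. Normalized counts are the estimated counts divided by the effective library size and rescaled to the mean library. Marker genes of a luminal prostate line summed to at least 327217 normalized counts in every library, whereas the 4 basal markers (KRT5, KRT14, KRT15 and TP63) summed to 92.2 at most.

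SFN was scarce in control cells and was the member that stood apart. It had 98.7 and 84.3 normalized counts in the scrambled siRNA libraries and 848 and 805 in the RRM2 siRNA libraries. Both knockdown libraries were far above both controls, and the groups did not overlap. The group means were 91.5 ± 10.2 (SD, n = 2) and 827 ± 30.2 (SD, n = 2), a 9.02-fold difference (log2 fold change 3.17, SE 0.09). With DESeq2 the SE was larger, at 0.16. The deposited estimated counts behind these values were 98 and 81 against 901 and 793. The SFN row lies on chromosome 1 at 26863142 to 26864457 on the plus strand. Among the 12330 tested genes whose mean normalized count reached 100, SFN ranked 4 by log2 fold change, and 3 when structural RNA genes were left out. Its neighbors just above that rank were CEL (3.46), a pancreatic lipase, FAXDC2 (3.46), a fatty acid hydroxylase domain protein, and RNA5-8S5 (3.39), with RNU1-1 (3.07) just below. The rows RNA5-8S5 and RNU1-1 are structural RNAs and were high in RRM2 siRNA replicate 2. SFN, CEL, FAXDC2 and RNU1-1 had under 100 normalized counts in both controls, so they reached that mean only through the knockdown libraries. Over all 15840 tested genes SFN ranked 25. Since SFN was chosen for its increase in this contrast, its rank is not read as a result.

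**Figure D1:**
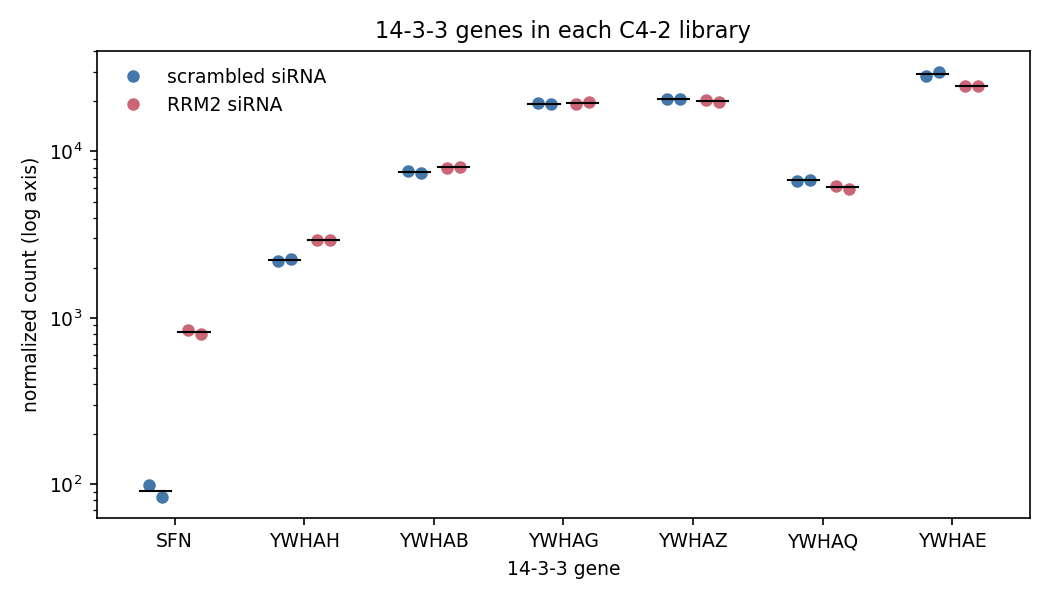
Normalized counts (log axis) of the 14-3-3 genes in each library, blue points for scrambled siRNA and red points for RRM2 siRNA, with a bar at each group mean. SFN moves from 84.3 to 98.7 counts up to 805 to 848, whereas the other members keep to their own level.

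YWHAH had the next largest positive fold change. It had 2197 and 2269 normalized counts in scrambled siRNA cells and 2925 and 2923 in RRM2 siRNA cells. The knockdown libraries were close to each other and both above the controls. The means were 2233 ± 50.9 and 2924 ± 1.16 (SD, n = 2 each), a 1.31-fold difference (log2 fold change 0.39, SE 0.04). YWHAH encodes the eta protein, first purified from brain, as most of the family was.

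YWHAB, whose protein binds RAF kinases, had 7646 and 7467 normalized counts in scrambled siRNA cells and 7981 and 8108 in RRM2 siRNA cells. The knockdown values were above both controls by a small margin, 7557 ± 127 against 8045 ± 89.4 (SD, n = 2 each), or 6.45% (log2 fold change 0.09, SE 0.04). YWHAG, whose protein binds CDC25 phosphatases, had 19595 and 19175 in scrambled siRNA cells and 19397 and 19767 in RRM2 siRNA cells. Its groups overlapped, with means of 19385 ± 298 and 19582 ± 261 (SD, n = 2 each) and a log2 fold change of 0.01 (SE 0.04).

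YWHAE, the most abundant member, was lower after knockdown. It had 28259 and 30035 normalized counts in scrambled siRNA cells and 24584 and 24611 in RRM2 siRNA cells. The groups did not overlap, and the control libraries differed from each other much more than the knockdown libraries did. The means were 29147 ± 1256 and 24597 ± 18.9 (SD, n = 2 each), a change of -15.6% (log2 fold change -0.24, SE 0.04). YWHAE encodes the epsilon protein, one of the most conserved members and a partner of many others in heterodimers.

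YWHAQ, whose theta protein was first described in T cells, had 6689 and 6771 normalized counts in scrambled siRNA cells and 6219 and 5988 in RRM2 siRNA cells. Both knockdown libraries lay below both controls, at 6104 ± 163 against 6730 ± 57.9 (SD, n = 2 each), or -9.30% (log2 fold change -0.14, SE 0.04). YWHAZ, the zeta protein that binds BAD and FOXO factors, had 20741 and 20665 in scrambled siRNA cells and 20316 and 19931 in RRM2 siRNA cells. The YWHAZ values did not overlap but were near each other, at 20703 ± 53.5 and 20123 ± 273 (SD, n = 2 each), with a log2 fold change of -0.04 (SE 0.03).

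Of the 7 genes, 6 stayed within 1.5-fold of the control mean. Groups did not overlap for SFN, YWHAH and YWHAB on the higher side and for YWHAE, YWHAQ and YWHAZ on the lower side, 3 genes each way, against 37.7% and 37.3% of all tested genes. At the cutoffs of the study (adjusted p under 0.05, more than 1.5-fold either way) edgeR called 5.90% of tested genes higher and 5.25% lower. Among the members 1 was past both thresholds on the higher side (SFN) and 0 on the lower side, and 0 also with DESeq2, with limma voom and at an unadjusted p under 0.05 with the same fold. Since this contrast chose the family, nothing is read from these counts. The log2 fold change of SFN ran from 3.06 to 3.29 over the alternative settings and that of YWHAH from 0.36 to 0.41. YWHAE ran from -0.29 to -0.20 and YWHAQ from -0.17 to -0.12, while YWHAG changed sign with a replicate left out.

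**Figure D2:**
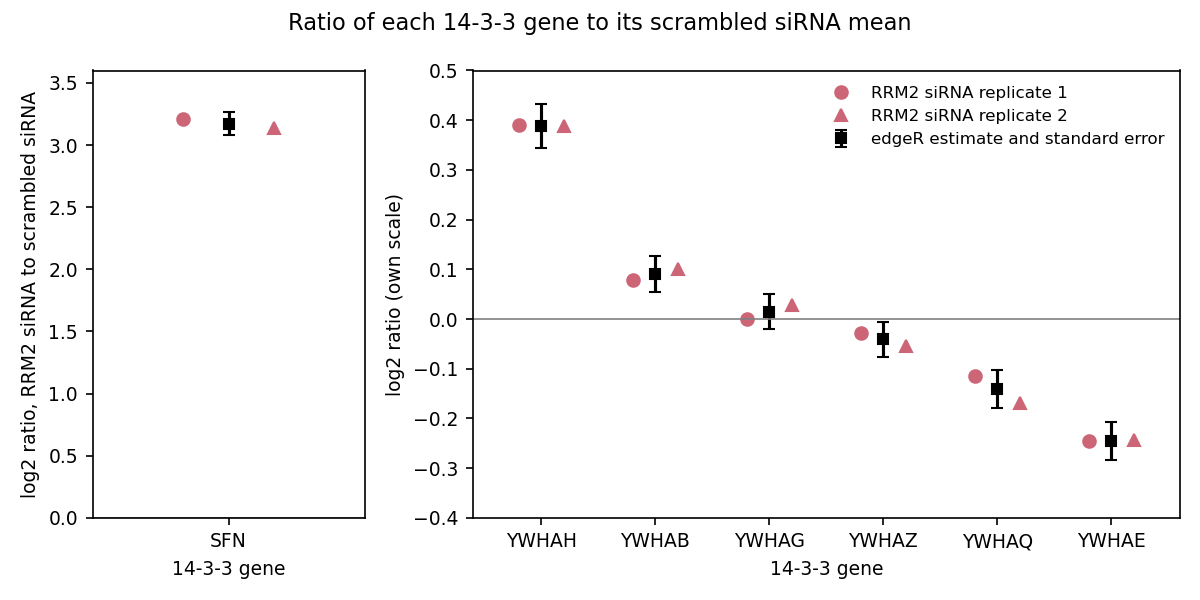
Log2 ratio of each RRM2 siRNA library (red circle and triangle) to the scrambled siRNA mean, with the edgeR estimate and its standard error in black, for SFN on the left and the other 6 genes on the right on a scale of their own. The estimates run from 0.39 for YWHAH to -0.24 for YWHAE, with SFN far above at 3.17.

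Levels were compared between members per length, as CPM (counts scaled to a common library size) per kb of the principal transcript. In control cells YWHAE was the highest at 458 ± 19.7 CPM per kb (SD, n = 2), followed by YWHAZ at 254, YWHAG at 179, YWHAQ at 106 ± 0.912, YWHAB at 86.0 ± 1.45 and YWHAH at 42.5. SFN was last at 2.41 ± 0.268. Neighbors in that order were farther apart than their spread over libraries, and the order was the same after knockdown. That of YWHAQ and YWHAB rests on the length used, since per kb of coding sequence YWHAB stood above YWHAQ (354 against 317).

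The summed 14-3-3 mRNA was close to level although its makeup differed. It was 1116 and 1140 CPM per kb in the scrambled siRNA libraries and 1081 and 1077 in the RRM2 siRNA libraries. The knockdown sums were both below the controls, at 1079 ± 2.97 against 1128 ± 16.5 (SD, n = 2 each), or -4.30%. SFN added 19.3 CPM per kb and YWHAH 13.2, whereas YWHAE was lower by 71.4, so that in amount the difference in YWHAE was larger than that in SFN. SFN made up 0.233% and 0.195% of the sum in the controls and 2.06% and 1.97% after knockdown, the share of YWHAH was 3.77% against 5.15%, and that of YWHAE 40.6% against 35.8%. In bulk RNA, more cells with SFN and more SFN per cell cannot be told apart.

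**Figure D3:**
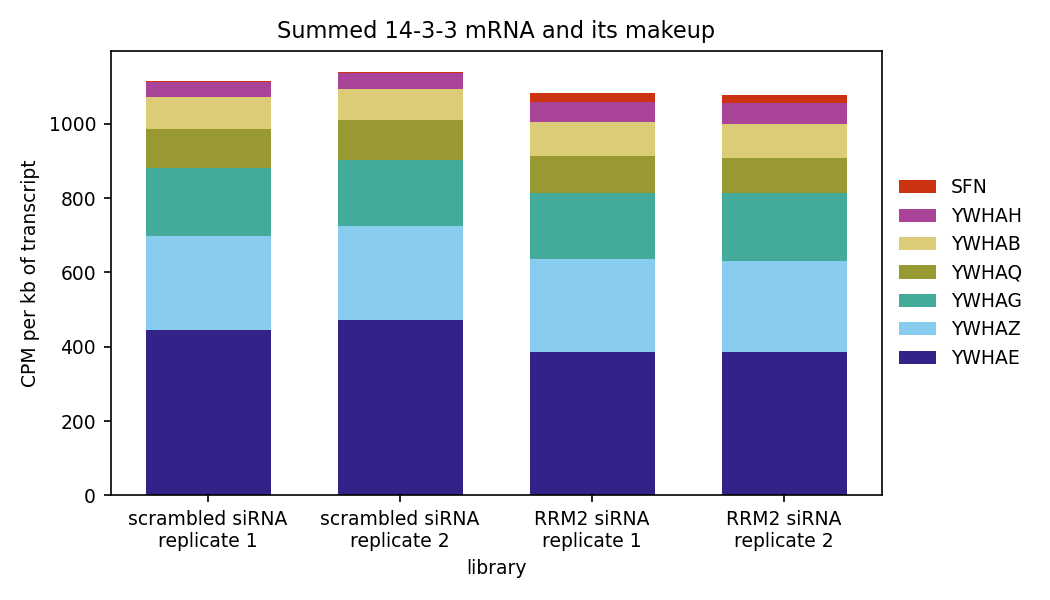
Stacked CPM per kb of transcript of the 7 genes in each library (bars from 0). The sums run from 1077 to 1140, with YWHAE the largest band everywhere and SFN a thin cap visible mainly after RRM2 siRNA.

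The genes differ in build as well as in level. SFN has a single coding exon, and its principal transcript in the GENCODE annotation (v29, GRCh38) has 1320 bases with 498 in the 3′UTR. YWHAG and YWHAH have 2 exons and transcripts of 3750 and 1825 bases, while YWHAB, YWHAE, YWHAQ and YWHAZ have 6 exons each. Coding lengths are alike, from 738 to 768 bases. SFN shared 62.0% (with YWHAE) to 70.1% (with YWHAG) of its coding bases with the other members, and the closest pairs were YWHAG with YWHAH at 78.8% and YWHAB with YWHAZ at 74.8%.

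Despite that similarity no stretch of 50 bases was shared between members, so reads of that length or longer can be told apart within the family. Windows were shared with other genes, which for YWHAZ, YWHAE and YWHAQ included pseudogenes named after them and for YWHAH did not. Of the 50-base windows of YWHAZ, 18.7% also occur in other genes, among them 5 YWHAZ pseudogenes, against 5.55% for YWHAE, 3.21% for YWHAH, 2.13% for YWHAQ and none for SFN, YWHAB and YWHAG. How the counting shared out such reads is not stated, so the levels of those 4 members carry an uncertainty that was not measured. The pseudogene YWHAEP1 had 107 and 146 normalized counts in scrambled siRNA cells and 93.2 and 102 in RRM2 siRNA cells and did not pass the test (log2 fold change -0.37, SE 0.19, edgeR adjusted p = 0.107), although it did without scrambled siRNA replicate 1 (adjusted p = 0.0194). YWHAEP7 had 0 counts in every library.

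The stretches before the gene starts also set SFN apart from the others. RefSeq promoter sequences (GRCh38.p14) were at hand for 6 members, all but YWHAZ, and the 250 bases before each start were read. CpG dinucleotides, the sites of promoter methylation, numbered 3 in SFN, 21 in YWHAB, 23 in YWHAG, 28 in YWHAQ, 29 in YWHAE and 34 in YWHAH, and the median over 27305 promoters was 11. Few CpG in SFN did not come with low GC content, which was 62.8% against a median of 58.0%. Of all promoters, 30.1% had 3 CpG or fewer. Methylation was not measured. In all 6 the GENCODE transcript starts within these 250 bases, so the counts include some transcribed bases. In YWHAE only 94 bases with 9 CpG lie before it. By the 250-base counts the poorest and the richest were SFN and YWHAH, the members that were higher by most. Their stretches are printed 5′ to 3′ from 250 bases before the start to the base before the annotated transcript, with each CpG in capitals. Cut in the same way, YWHAQ holds 27 CpG in 233 bases, more than YWHAH. The printed stretches are chr1:26862899-26863137 for SFN and chr22:31944285-31944460 for YWHAH, both on the plus strand.
SFN: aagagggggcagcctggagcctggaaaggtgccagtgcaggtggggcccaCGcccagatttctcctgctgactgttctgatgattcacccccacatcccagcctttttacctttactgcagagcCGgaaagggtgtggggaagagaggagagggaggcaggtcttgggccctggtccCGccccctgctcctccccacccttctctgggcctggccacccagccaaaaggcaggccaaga
YWHAH: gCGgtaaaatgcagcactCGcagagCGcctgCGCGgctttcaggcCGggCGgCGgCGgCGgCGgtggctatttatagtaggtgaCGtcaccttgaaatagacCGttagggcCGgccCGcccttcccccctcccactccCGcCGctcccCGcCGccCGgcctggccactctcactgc
The SFN stretch holds 3 capital pairs spread over 239 bases, and the YWHAH stretch holds 20 over 176 bases.

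**Figure D4:**
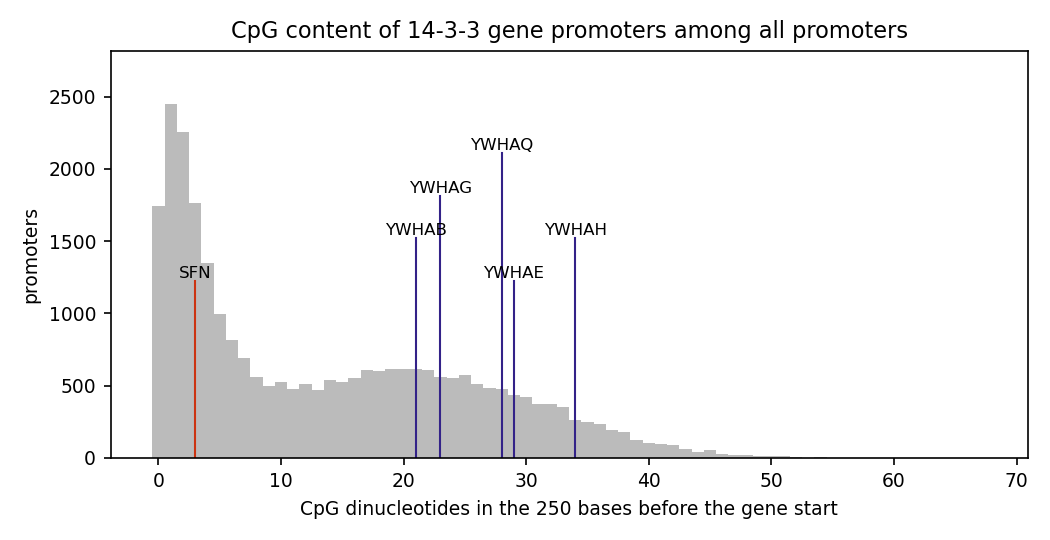
Number of promoters (gray bars) by the CpG dinucleotides in the 250 bases before the gene start, with lines marking 6 members (line heights carry no value). SFN at 3 lies in the CpG-poor peak, and the others lie between 21 and 34.

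Motifs were counted on both strands of the same 250 bases. The SP1 box GGGCGG, held by 42.3% of promoters, was found in all 6, with 1 copy in SFN and YWHAE, 3 in YWHAH and 4 in YWHAB, YWHAG and YWHAQ. The CCAAT box (33.0% of promoters) was found in YWHAB (1) and YWHAQ (3). YWHAH alone held a TATAAA (11.1%), on the opposite strand, and a cAMP response element TGACGTCA (1.77%), which can be read in its printed stretch. The p53 decamer (5.53% of promoters) was in none of the 6 windows, and p53 sites known for SFN lie farther upstream. Each match is a description of letters only.

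The pattern of SFN over the 4 libraries was closest to that of 5 genes among 12309, by the Euclidean distance of centered log2 CPM. These were CEL (0.333), FAXDC2 (0.425), CDKN1A (0.869), TRIM22 (0.992) and APOBEC3C (1.00). CEL had 41.3 and 39.6 normalized counts in scrambled siRNA cells and 502 and 392 in RRM2 siRNA cells. CDKN1A, which encodes the CDK inhibitor p21, had 5387 and 5622 against 27631 and 26805. TRIM22, an interferon-induced antiviral gene, had 44.3 and 55.2 against 268 and 218, and APOBEC3C, a cytidine deaminase gene, 32.2 and 42.7 against 184 and 183. All 5 were higher in both knockdown libraries than in both controls, as the likeness to SFN requires, and CDKN1A was abundant in the controls too. CEL, FAXDC2, TRIM22 and APOBEC3C had under 100 in both controls, so they entered the comparison only through their level after knockdown.

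Genes known to regulate SFN were called at shares near those of all tested genes, so the counts are not read as a result. Of 11 genes, 10 were tested, with 2 higher, 2 lower and 6 not passing (edgeR quasi-likelihood test, adjusted p under 0.05), against 25.4% higher and 25.0% lower among all tested genes. The median was 0.02 on the log2 scale and that of all genes -0.0019. UHRF1, which guides maintenance of DNA methylation, fell (-1.01, SE 0.07, adjusted p = 4.96e-08), as did TRIM25, a ubiquitin ligase that acts on the SFN protein (-0.34, SE 0.05). MDM2, the ubiquitin ligase of p53 and itself a p53 target, rose (0.65, SE 0.05), as did BRCA1, a coactivator of SFN (0.43, SE 0.06). The DNA methyltransferase genes DNMT1 (-0.04), DNMT3A (-0.10) and DNMT3B (0.00) did not pass. TP63, a repressor or activator of SFN by isoform, was under the filter.

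The p53 target genes, the group to which SFN belongs, were higher almost throughout. Of 32 listed without SFN, 31 were tested, of which 30 rose and 1, GDF15, fell, against the 25.4% and 25.0% above, and their median log2 fold change was 0.87. DDB2, a damage-recognition factor, had 494 and 537 normalized counts in scrambled siRNA cells and 2093 and 2101 in RRM2 siRNA cells (2.02, SE 0.05). FDXR, a mitochondrial reductase, was at 1.66 (SE 0.05) and ZMAT3, an RNA-binding p53 target, at 1.37 (SE 0.05). SFN, at 3.17, lay above all of them, but it was chosen for its large increase in this contrast, so its place is not a result. GDF15, a secreted cytokine, had 92645 and 104877 against 89588 and 85605 (-0.17, SE 0.05, edgeR adjusted p = 0.0117). Its call was lost with DESeq2 (adjusted p = 0.156) and, in edgeR, without RRM2 siRNA replicate 2 (adjusted p = 0.123).

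Genes of the G2 checkpoint, among them CDKN1A and GADD45A that are also on the p53 target list, went both ways. Of 18 listed, 17 were tested, 10 rose (58.8%), 4 fell (23.5%) and 3 did not pass, with a median of 0.18. The share that fell was near the 25.0% of all tested genes, and 25.4% of all rose. CDK1, the kinase that SFN tethers, had 6694 and 6561 normalized counts in scrambled siRNA cells and 7623 and 7431 in RRM2 siRNA cells (0.18, SE 0.04, adjusted p = 0.00073). Its partner CCNB1 had 2446 and 2457 against 1520 and 1542 (-0.68, SE 0.05, adjusted p = 1.65e-08), and CCNB2 fell too (-0.47, SE 0.05). The CDK1 inhibitory kinases WEE1 (0.79, SE 0.05) and PKMYT1 (0.70, SE 0.06) rose, as did GADD45A (0.95, SE 0.05), while the mitotic kinase PLK1 (-1.23, SE 0.06) and GTSE1, a microtubule-associated protein of G2 (-0.42, SE 0.07), fell. Of the CDC25 phosphatases that 14-3-3 proteins bind, CDC25C rose (0.32, SE 0.09), although not with DESeq2 (adjusted p = 0.0970) or without scrambled siRNA replicate 1 (edgeR adjusted p = 0.0655), and CDC25B did not pass (0.07, SE 0.06, adjusted p = 0.368). With DESeq2 6 of the list rose rather than 10, but the share of all tested genes was not counted with that tool.

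Client genes of the family went both ways. Of 50 listed, 48 were tested, with 18 higher (37.5%), 6 lower (12.5%) and 24 that did not pass, and a median of 0.07. Among all tested genes 25.4% were higher and 25.0% lower. With DESeq2 13 of the client genes were higher rather than 18, again without a share of all genes for that tool. BAX is also on the p53 target list and MDM4 on the list of SFN regulators. WEE1, CDC25A, CDC25B and CDC25C are also on the G2 checkpoint list, and all of these but CDC25B were called higher in edgeR. BAX, which 14-3-3 proteins hold in the cytosol, rose (0.87, SE 0.05), as did WEE1 (0.79, SE 0.05), YAP1, a coactivator retained in the cytoplasm (0.37, SE 0.04), and FOXO3 (0.30, SE 0.04). CBL, a ubiquitin ligase, fell (-0.90, SE 0.06), as did AKT1S1, an mTORC1 inhibitor (-0.62, SE 0.05). SSH1, a cofilin phosphatase, fell by less (-0.21, SE 0.06), as did ARAF, a RAF kinase gene (-0.15, SE 0.05). SSH1 did not pass without scrambled siRNA replicate 1 (edgeR adjusted p = 0.129). ARAF passed neither with DESeq2 (adjusted p = 0.137) nor without scrambled siRNA replicate 1, RRM2 siRNA replicate 1 or RRM2 siRNA replicate 2 (edgeR adjusted p = 0.0514, 0.0692 and 0.0813). The lower count was 3 without scrambled siRNA replicate 1, without RRM2 siRNA replicate 1 and with DESeq2.

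SFN is also a gene of squamous and basal epithelium. Of 25 other genes of those layers, 14 were tested and 11 were under the filter, and of the tested 9 rose, 0 fell and 5 did not pass (edgeR), against 25.4% and 25.0% of all tested genes. No list member fell at an unadjusted p under 0.05 or with DESeq2 or limma voom. The median log2 fold change was 1.06. Of the 9, KRT17, COL17A1, IVL and SPRR1A had under 10 normalized counts in both controls. These 4 passed the filter only through their level after knockdown. KRT14 reached 10 among the controls only in scrambled siRNA replicate 1, so it too needed its level after knockdown to pass. Neither the count nor the median is therefore read as a result. SERPINB5, a serpin of normal epithelium, had 354 and 370 normalized counts in scrambled siRNA cells and 964 and 944 in RRM2 siRNA cells (1.40, SE 0.06). LAMB3, a laminin chain of the basement membrane, had 335 and 353 against 755 and 767 (2.21-fold). KRT17 had 2.02 and 1.04 against 22.6 and 19.3, and COL17A1 had 0 and 2.08 against 33.9 and 24.4, so both stayed scarce, and KRT17 had no adjusted p with DESeq2. With at least 10 counts required in every library, and with DESeq2, 4 genes rose. Summed basal markers were 37.5 to 43.3 in scrambled siRNA cells and 75.2 to 92.2 in RRM2 siRNA cells, with KRT5 and TP63 near 0 and with KRT15 (30.2 and 28.1 against 60.2 and 54.8) and KRT14 (11.1 and 7.29 against 27.3 and 18.3) making up most of the sum, and the luminal sum was 359256 to 370950 against 327217 to 330495. Their part in the SFN values was not tested.

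**Figure D5:**
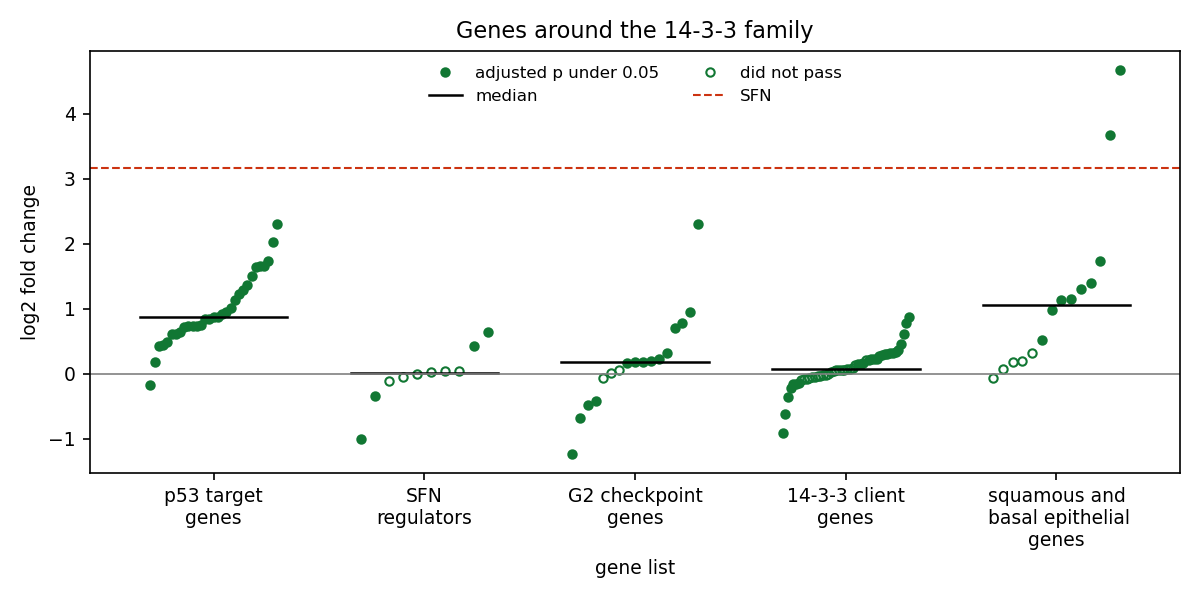
Log2 fold change (RRM2 siRNA over scrambled siRNA) of each tested gene in the 5 lists, filled where the edgeR adjusted p was under 0.05, with black bars at the list medians and a dashed line at SFN (3.17). The p53 targets lie almost all above 0, and the SFN regulators, with a median of 0.02, lie on both sides.

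The words AAGTCCA and AGTCCAA both occur in the RRM2 transcripts, and 29.8% of 19656 genes carry at least 1 of them in any of their principal transcripts. They come from an earlier search of these data. Each member was searched in only 1 principal transcript, so that share is a more permissive measure. YWHAQ carried both and YWHAE carried AGTCCAA, each in the 3′UTR, and the other 5 members carried neither. YWHAQ and YWHAE were the members with the lowest log2 fold changes. Since the words were found in these same data and are common among all genes, nothing is read from that. The part of these words in the values was not tested.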

How the data were processed

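RNA sequencing was performed on C4-2 cells treated with scrambled or RRM2 siRNA (n = 2 libraries each). The authors deposited estimated counts per gene produced with Partek Flow. Its version, the aligner, the annotation and the build were not given in the sources used here. Estimated counts were rounded to whole numbers, filtered (filterByExpr) and normalized by TMM. Testing used the quasi-likelihood functions of edgeR 4.0.16 in R 4.3.3 (glmQLFit, glmQLFTest) with Benjamini-Hochberg adjustment over 15840 genes. Each SE is the absolute log2 fold change divided by the square root of the quasi-likelihood F statistic, not a separately estimated error. It can understate the uncertainty, and for RRM2 it was 0.08 against 0.13 with DESeq2. Lists were counted at an adjusted p under 0.05. DESeq2 1.42.0 and limma 3.58.1 served as alternatives, beside other filters, scalings and each library left out. Date-like entries stood in place of 27 gene symbols, and these rows were kept under placeholder names. The libraries of a group differed by more than sampling noise (chi-square per degree of freedom 2.95 and 1.98 without structural RNA genes). The members, lists and tests were chosen with earlier results of these data known. The text names the members, RRM2, the 5 genes nearest to SFN, some genes set by name (MDM2, CDKN1A, CDK1, CCNB1, CDC25B and CDC25C), rows whose symbols start with YWHA, and from each list up to 4 genes called higher and 4 called lower with the smallest edgeR p. Of the listed regulators of SFN, 1 gene is not reported here. Transcripts came from GENCODE v29 and promoters from RefSeq, read with Python 3.11.15 and Biopython 1.88.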

Additional observations from a re-analysis of the deposited data

How the results depend on the processing

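No member changed direction under any alternative except YWHAG, whose log2 fold change was 0.01 and became -0.0033 without scrambled siRNA replicate 2 and -0.00069 without RRM2 siRNA replicate 2 (range -0.0033 to 0.026 with each library left out). CDC25B, which did not pass, turned to -0.024 without RRM2 siRNA replicate 1 (range -0.024 to 0.15). The range of SFN (3.06 to 3.29) came from leaving out either scrambled siRNA library, in which SFN had fewer than 100 counts. With DESeq2, 597 genes were past both thresholds on the higher side in place of 935, 0 p53 targets were lower, 6 G2 checkpoint genes were higher, 3 client genes were lower and 4 squamous and basal genes were higher, the last also with at least 10 counts in every library. Shares of all tested genes at an adjusted p alone were not counted with DESeq2, so its list counts have no background. In edgeR, a fold change over 2 left 412 genes higher and 256 lower. With each library left out in turn, client genes lower ran from 3 to 6 and p53 targets lower from 0 to 1. Per coding length SFN made up 0.107% of the family in scrambled siRNA cells and 1.01% in RRM2 siRNA cells. Libraries share replicate numbers, but same-numbered libraries did not deviate together (correlation 0.037 over genes, 2 pairs). With a replicate block 953 genes were higher and 845 lower, against 935 and 831 without it, and the log2 fold change of SFN stayed at 3.17. Leaving out structural RNA genes, an alternative chosen after seeing the data, gave 928 and 825. The spread rests on 2 libraries per group.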
